A study of Arabidopsis thaliana with 9 samples.

Results

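SIR encodes the plastid sulfite reductase of Arabidopsis, and its transcript was followed on 9 ATH1 arrays as the level of the probe set whose only gene symbol is SIR. This was 1 of 22746 probe sets tested. RNA came from whole seedlings that were kept in darkness for 3 days and then in light for 6 h. There were 3 arrays of untreated wild type (Col-0), 3 of wild type supplied with 10 µM gabaculine in the medium (GAB), and 3 of untreated gun4-1 seedlings, and the labels give Col-0 as the cultivar of all 9. Gabaculine inhibits glutamate-1-semialdehyde aminotransferase, which makes 5-aminolevulinic acid (ALA), the precursor of all tetrapyrroles. gun4-1 carries a mutation in GUN4, a protein that stimulates magnesium chelatase at the start of the chlorophyll branch. GUN4 itself was not analysed here, so the genotype of the gun4-1 arrays was not checked on the arrays. Because whole seedlings were extracted, fewer cells that express SIR and less SIR RNA per cell cannot be told apart.

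Plants take up sulfate, activate it with ATP sulfurylase and reduce it to sulfite with APS reductase. Sulfite reductase then reduces sulfite to sulfide with electrons from ferredoxin, and sulfide is built into cysteine. The enzyme carries an iron-sulfur cluster and sirohaem, an iron tetrapyrrole that branches off at uroporphyrinogen III and therefore shares its early steps with chlorophyll and haem. Nitrite reductase is the other sirohaem enzyme of plastids, and in pea sulfite reductase is also found on plastid nucleoids.

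The signal of SIR was lower on each gun4-1 array than on any other array, while the arrays of GAB and Col-0 overlapped. On the log2 scale of the deposited values, the Col-0 arrays gave 9.98, 9.90 and 9.99 in replicates 1 to 3. The GAB arrays gave 10.06, 9.83 and 9.71. The gun4-1 arrays gave 9.29, 8.98 and 9.25. The highest value of all came from a GAB array and the lowest from a gun4-1 array. The brightest gun4-1 array lay 0.42 below the dimmest GAB array and 0.60 below the dimmest Col-0 array.

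**Figure D1:**
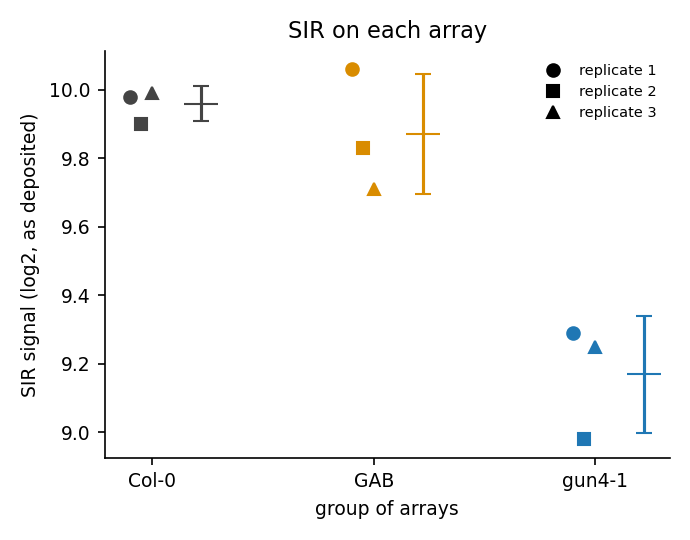
Log2 signal of SIR on each of the 9 arrays (vertical axis, which does not start at 0) by group (horizontal axis), with the mean and SD of the 3 arrays beside the points. The gun4-1 arrays lie between 8.98 and 9.29, below all others, and the GAB arrays lie between 9.71 and 10.06, around the Col-0 arrays at 9.90 to 9.99.

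SIR was chosen by its log2 signals in the 3 groups of these same arrays, as seen in earlier results, so its values are a description and no test is given for it. The mean log2 signal was 9.96 ± 0.0519 (SD, n = 3) in Col-0, 9.87 ± 0.175 (SD, n = 3) in GAB and 9.17 ± 0.171 (SD, n = 3) in gun4-1. The order was therefore Col-0, GAB, gun4-1, and the neighbours Col-0 and GAB did not differ beyond their spread. Against Col-0, gun4-1 was lower by a log2 difference of -0.78 ± 0.10 (SE from the arrays), which is 58.1% of the Col-0 level. Against GAB the log2 difference of gun4-1 was -0.69 ± 0.14 (SE), or 61.8% of the GAB level. The log2 difference of GAB from Col-0 was -0.09 ± 0.11 (SE), or 94.1% of the Col-0 level. Both differences from Col-0 rest on the same 3 Col-0 arrays.

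Taken array by array, the gun4-1 signal was the lower in 9 of 9 pairs with Col-0, by log2 differences from -1.01 to -0.60. It was also the lower in 9 of 9 pairs with GAB, by -1.08 to -0.42. The GAB signal was the lower in 6 of 9 pairs with Col-0, and these pairs ranged from -0.27 to 0.16. On the linear scale the Col-0 arrays read 1013, 953 and 1016 signal units, the GAB arrays 1067, 911 and 840, and the gun4-1 arrays 627, 504 and 609. The dimmest GAB array thus stood at 84.6% of the Col-0 mean and the brightest gun4-1 array at 63.1%. With the first GAB replicate left out, the log2 difference of GAB from Col-0 was -0.18, and without the third it was -0.01. The small GAB value therefore depended on which GAB arrays were included, and the mean of GAB was below that of Col-0 in each case.

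Groups that separated fully were common on these arrays, and nothing about SIR is read from its separation. All gun4-1 arrays lay below all Col-0 arrays for 18.0% of the probe sets tested, and below all GAB arrays for 14.2%. For 10.1% of the probe sets the gun4-1 arrays lay below all 6 other arrays. The size of the difference placed SIR nearer the end of the distribution. SIR was chosen by these same signals, so this place is a description too and nothing is read from it. Between gun4-1 and Col-0, 2.72% of the probe sets had a lower log2 difference than SIR. The median there was 0.02, and the lowest 5% lay below -0.58. Between gun4-1 and GAB the share below SIR was 2.39%, and between GAB and Col-0 it was 27.6%.

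The spread of SIR between replicates differed from group to group. In Col-0 its SD of 0.0519 was below the median SD of all probe sets in that group, 0.0969, and 20.5% of the probe sets had a smaller one. In GAB the SD of 0.175 exceeded that of 84.1% of the probe sets, whose median was 0.0950. In gun4-1 the SD of 0.171 exceeded that of 74.7%, with a median of 0.113. SIR was therefore tightly measured in untreated wild type and more variable than most probe sets in the treated and mutant seedlings. Arrays of a group correlated at 0.996 to 0.997 over all probe sets, and the median signal per array lay between 6.41 and 6.57, lowest in gun4-1.

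Since the array medians of gun4-1 were the lower ones, the arrays were also scaled in 3 other ways. After a further quantile normalization SIR differed between gun4-1 and Col-0 by -0.81, after centring each array on the mean of 8 reference genes by -0.76, and after centring on the array median by -0.68 (all log2). Centring on the median moved all probe sets, since the median of gun4-1 lay -0.10 from that of Col-0. The log2 difference of gun4-1 from GAB lay between -0.70 and -0.64 under these scalings, and that of GAB from Col-0 between -0.11 and -0.05. In each scaling the gun4-1 arrays stayed below all others and GAB overlapped Col-0.

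**Figure D2:**
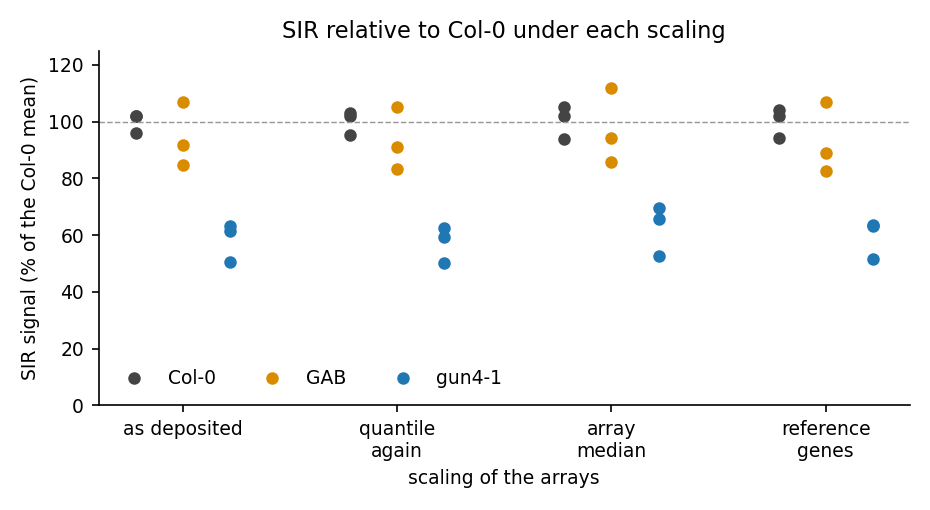
Signal of SIR on each array as a percent of the Col-0 mean (vertical axis, linear, from 0; the dashed line is the Col-0 mean) under the deposited normalization and 3 other scalings (horizontal axis). As deposited, the gun4-1 arrays stand at 50.7 to 63.1% and the GAB arrays at 84.6 to 107%, and the order is kept under each scaling.

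The genes around SIR in sulfur and tetrapyrrole metabolism were taken from 13 lists with 201 genes, of which 28 had a probe set with that gene as its only name. A gene was counted as changed at an adjusted p of at most 0.05 in limma (Benjamini-Yekutieli adjustment over all probe sets) together with a fold above 1.5 or below 0.667. In gun4-1 against Col-0, 2 of the 28 listed genes were higher and 1 was lower, where 6.90% of all probe sets changed (2.44% higher, 4.46% lower). In GAB against Col-0, 0 were higher and 2 lower, where 1.46% of all probe sets changed (0.769% higher, 0.690% lower). Between gun4-1 and GAB, 1 was higher and 1 lower, where 3.80% changed (1.32% higher, 2.48% lower). The median log2 difference of the 28 genes was 0.06 in gun4-1 and 0.01 in GAB, beside 0.02 and 0.00 over all probe sets, and 11 of the 28 had a log2 difference below 0 in gun4-1. The split of all changed probe sets depended on the scaling: 64.6% of those changed in gun4-1 were lower as deposited and 47.2% after centring on the array median, and in GAB these shares were 47.3% and 37.1%.

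Upstream of SIR, 2 of the 26 listed genes of sulfate uptake and assimilation were measured, both for ATP sulfurylase, and neither passed the limits in any comparison. The genes of APS reductase, the enzyme that makes sulfite, were not among the named probe sets and were not analysed here, so these 2 genes do not stand for the path to sulfite as a whole. APS4 had log2 signals of 10.70, 10.66 and 10.57 in Col-0, of 10.36, 10.39 and 10.53 in GAB, and of 10.31, 10.35 and 10.11 in gun4-1. Its gun4-1 arrays lay below all Col-0 arrays, with a log2 difference of -0.39 ± 0.088 (SE), which missed the limits (limma adjusted p = 0.0756). APS3 differed from Col-0 by -0.05 in gun4-1 and by -0.24 in GAB, each with a limma SE of 0.096 on the log2 scale. None of the listed genes of cysteine synthesis, the step that uses the sulfide SIR makes, was among the named probe sets, and these genes were not analysed here.

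Of the genes that respond to sulfur starvation, 2 were measured. At1g04770, which has no gene name in the annotation used, was the 1 listed gene that was lower in gun4-1 past both limits. Its log2 signals were 8.67, 8.64 and 8.85 in Col-0, 7.97, 8.01 and 8.01 in GAB, and 7.09, 7.27 and 7.25 in gun4-1. Unlike SIR, it fell in steps, with no overlap between any of the groups. The limma log2 difference was -0.72 ± 0.084 (SE, adjusted p = 0.0041) in GAB and -1.51 ± 0.084 (SE, adjusted p = 3.0e-06) in gun4-1, and gun4-1 was lower than GAB by a log2 difference of -0.79 ± 0.084 (SE, adjusted p = 0.000817). BGLU28, a beta-glucosidase, was dim and variable, at 4.25, 4.48 and 5.59 in Col-0, 5.05, 4.93 and 4.67 in GAB and 4.27, 3.87 and 4.23 in gun4-1, and it passed the limits in no comparison. Its value on the third Col-0 array stood far above those on the other two, and without that array its log2 difference of -0.76 between gun4-1 and GAB passed (limma adjusted p = 0.0347).

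SIRB, the ferrochelatase that inserts iron to complete sirohaem, varied little between arrays. Its log2 signal lay between 8.35 and 8.51 on all 9 arrays, and its log2 difference from Col-0 was 0.02 ± 0.073 (SE) in gun4-1 and -0.03 ± 0.073 (SE) in GAB. At2g04700, on the list of ferredoxins and ferredoxin-dependent plastid enzymes, differed by 0.17 ± 0.086 (SE) in gun4-1 and 0.01 ± 0.086 (SE) in GAB, and did not pass.

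Sirohaem and chlorophyll share the steps from glutamate to uroporphyrinogen III, and 5 genes of this stretch were measured. HEMA2, a glutamyl-tRNA reductase, had log2 signals of 7.07, 7.22 and 6.99 in Col-0, 7.40, 7.42 and 7.38 in GAB, and 7.38, 7.72 and 7.75 in gun4-1. It was thus higher on every gun4-1 array and on every GAB array than on any Col-0 array. In gun4-1 this was against the direction of SIR, while in GAB SIR overlapped Col-0. The log2 difference of HEMA2 between gun4-1 and Col-0, 0.53 ± 0.10 (SE, limma adjusted p = 0.0323), was below the fold limit. This difference was past the limit after a further quantile normalization (0.59) and after centring on the array median (0.62), and also without the first gun4-1 array (0.64). GSA1, a glutamate-1-semialdehyde aminotransferase of the kind that gabaculine inhibits, differed by -0.10 in gun4-1 and by -0.13 in GAB. HEMA3 and the ALA dehydratase genes HEMB1 and hemb2 differed by 0.03 to 0.12 in either group. HEMA3 (3.63 to 3.82) and hemb2 (3.80 to 4.16) were dim on all arrays, so their small differences say little. HEMB1 was bright, at 11.03 to 11.37. Apart from HEMA2, none of these genes reached an adjusted p of 0.05.

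**Figure D3:**
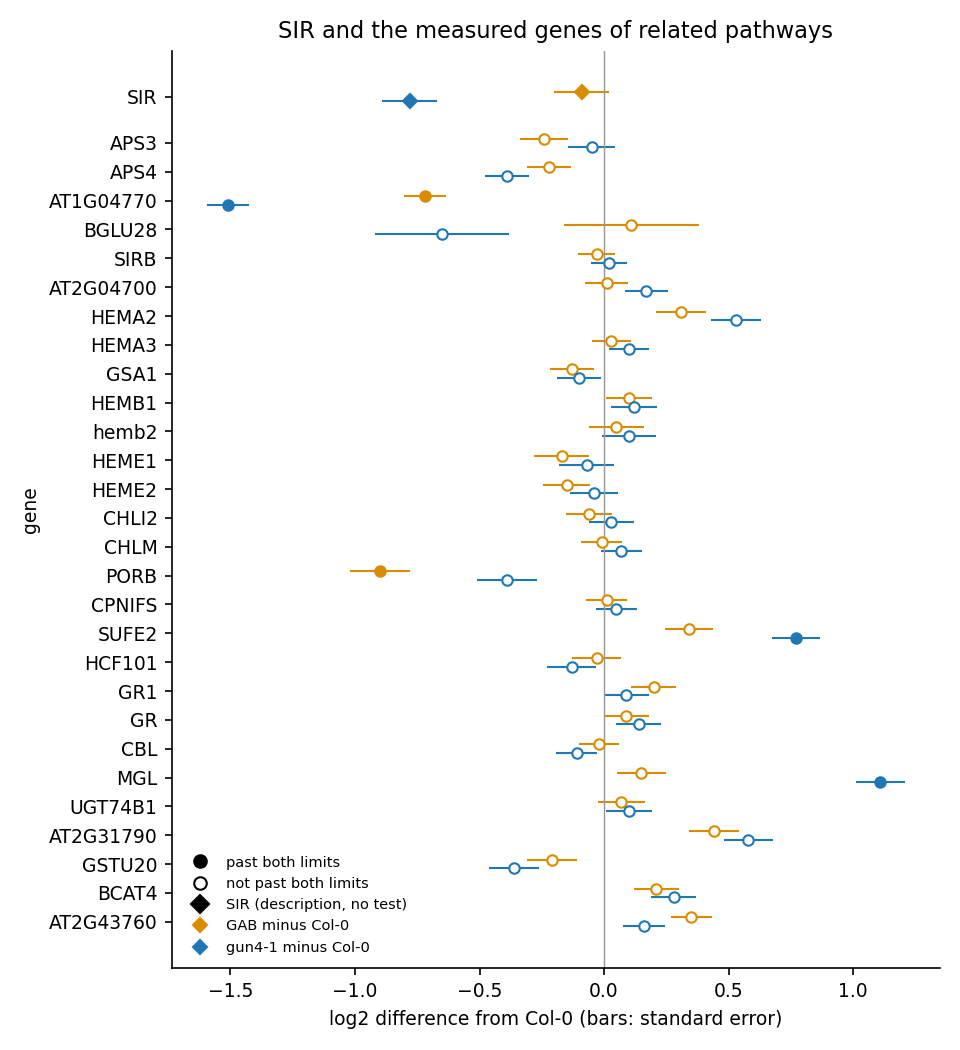
Log2 difference from Col-0 (horizontal axis) of GAB and of gun4-1 for SIR and the 28 measured listed genes (vertical axis), with the standard error of the limma fit as bars; filled circles are past both limits, and the diamonds of SIR are a description without a test. Among the gun4-1 points SIR lies at -0.78 and At1g04770, at -1.51, farther to the left; among the GAB points SIR lies at -0.09 and PORB, at -0.90, farthest to the left.

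On the remaining lists PORB, SUFE2 and MGL passed the limits, each with a pattern unlike that of SIR. PORB, a light-dependent protochlorophyllide oxidoreductase, had log2 signals of 11.56, 11.45 and 11.42 in Col-0, 10.82, 10.35 and 10.56 in GAB, and 11.14, 10.89 and 11.23 in gun4-1. Its low group was GAB, where the log2 difference was -0.90 ± 0.12 (SE, limma adjusted p = 0.0108), a call that was lost when the first Col-0 array, the second Col-0 array, the second GAB array or the third GAB array was left out (adjusted p = 0.0562 to 0.0717). In gun4-1 the difference of -0.39 did not pass (adjusted p = 0.374).

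SUFE2, an activator of the cysteine desulfurase that supplies sulfur for iron-sulfur clusters in plastids, had log2 signals of 7.60, 7.85 and 7.62 in Col-0, 8.02, 8.05 and 8.00 in GAB, and 8.60, 8.30 and 8.46 in gun4-1. It was highest in the group where SIR was lowest. The log2 difference was 0.77 ± 0.097 (SE, limma adjusted p = 0.00143) in gun4-1 and 0.34 ± 0.097 (SE, adjusted p = 0.641) in GAB. CPNIFS, a plastid cysteine desulfurase, differed by 0.05 in gun4-1 and did not pass. At2g31790, on the list of glucosinolate synthesis, had log2 signals of 7.31 to 7.56 in Col-0, 7.78 to 7.94 in GAB and 7.84 to 8.18 in gun4-1. It also lay opposite to SIR in gun4-1, but its log2 difference of 0.58 ± 0.10 (SE, limma adjusted p = 0.0141) fell just short of the fold limit. It passed under each of the other scalings (0.61 to 0.68), and also without the third Col-0 array (0.65) or the first gun4-1 array (0.67). At2g43760, on the list of the molybdenum cofactor, differed by 0.35 in GAB and 0.16 in gun4-1 and did not pass.

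MGL, methionine gamma-lyase, stood on the list of methionine synthesis but breaks methionine down. Its log2 signals were 9.19, 9.42 and 9.07 in Col-0, 9.34, 9.49 and 9.30 in GAB, and 10.30, 10.40 and 10.30 in gun4-1. GAB and Col-0 overlapped and gun4-1 stood apart, as for SIR, but upwards. The log2 difference of gun4-1 was 1.11 ± 0.098 (SE, limma adjusted p = 0.000104) from Col-0 and 0.96 ± 0.098 (SE, adjusted p = 0.000597) from GAB. Over the 9 arrays its Pearson correlation with SIR was -0.95, a description in which both profiles come from the same arrays and most of the variation is between groups.

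**Figure D4:**
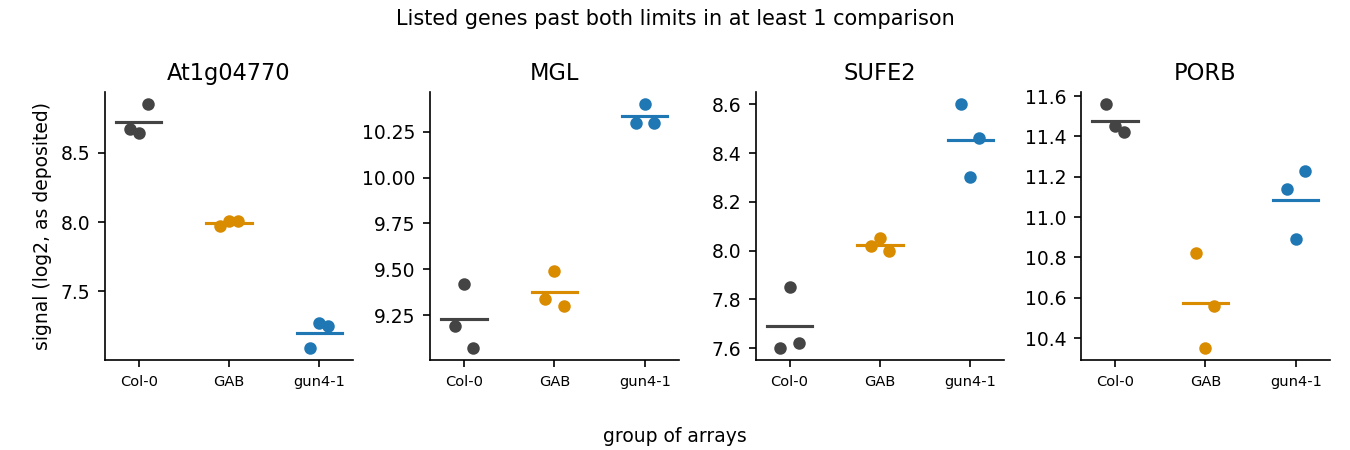
Log2 signal (vertical axes, which do not start at 0 and differ between panels) of the 4 listed genes that were past both limits in at least 1 comparison, by group (horizontal axes); points are arrays and lines are the means of 3 arrays. At1g04770 steps down from Col-0 over GAB to gun4-1, MGL and SUFE2 are highest in gun4-1, and PORB is lowest in GAB.

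The profile of SIR over the 9 arrays was next set against those of 13512 other probe sets with 1 gene name. Each profile was centred on its own mean and the root mean square (RMS) difference from SIR was taken, in log2 units. The 10 nearest genes had RMS differences of 0.0683 to 0.137, where the median of all probe sets was 0.398 and SIR itself had an RMS deviation of 0.369 about its mean. They were, nearest first, At2g28790, At5g19730, PMEPCRF, At5g38980, At3g63510, CaS, At3g07320, At1g71695, At2g40010 and At2g34190, and their Pearson correlations with SIR were 0.93 to 0.99. PMEPCRF is a pectin methylesterase and CaS a calcium sensing receptor of thylakoids, and the others carry only a locus name here. None of the 10 belonged to the pathway lists. These lists held only 28 of the 13512 probe sets compared, so nothing is read from their absence.

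At2g28790, the nearest, had log2 signals of 9.26, 9.10 and 9.11 in Col-0, 9.30, 9.08 and 9.07 in GAB, and 8.49, 8.31 and 8.53 in gun4-1. As for SIR, its first GAB array was the brightest of all 9 and its second gun4-1 array the dimmest. CaS had log2 signals of 11.69, 11.50 and 11.67 in Col-0, 11.65, 11.52 and 11.38 in GAB, and 11.14, 10.97 and 11.14 in gun4-1. Its profile followed that of SIR with a smaller step, -0.54 between gun4-1 and Col-0 on the log2 scale. Over the 10 genes this log2 difference ranged from -0.96 to -0.54, and that of GAB from -0.35 to 0.00. As they were chosen for their likeness to SIR, these values are a description.

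**Figure D5:**
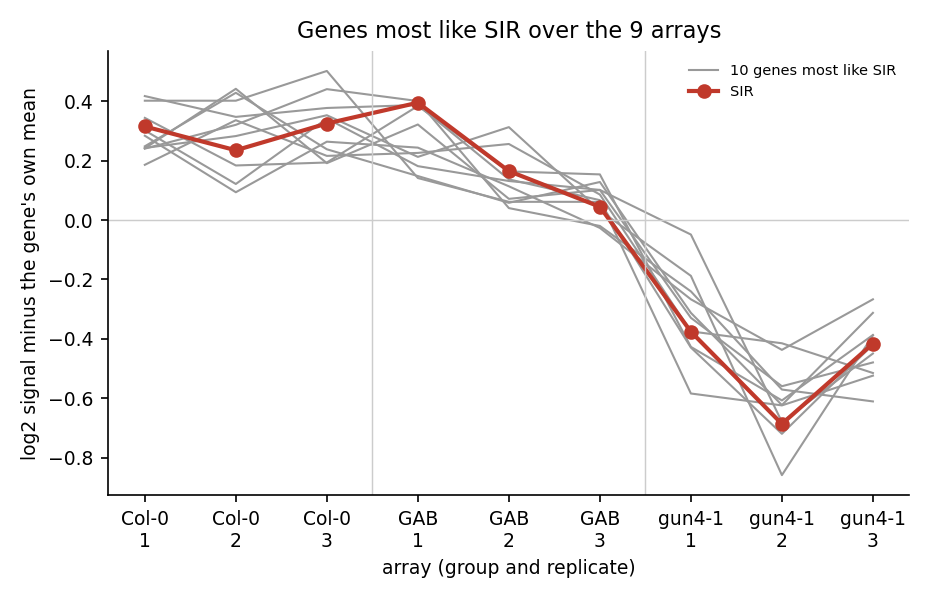
Log2 signal minus the gene's own mean over the 9 arrays (vertical axis) for SIR in red and for the 10 named genes with the smallest RMS difference from it in grey, by array (horizontal axis; the lines join arrays of no particular order). All 11 profiles drop in gun4-1, and their RMS differences from SIR are 0.0683 to 0.137.

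Likeness depended on its measure. By Pearson correlation, which ignores the size of the steps, 3 of the 10 genes remained among the 10 nearest to SIR. By the RMS difference after a further quantile normalization, 8 remained. Centring on the array median or on the reference genes moves all genes of an array alike. Such centring cannot change an RMS difference from SIR, so the same 10 genes were kept by construction and their stability was not tested by it. Within an RMS difference of 0.15 there were 36 probe sets, of which 19 had 1 gene name. Among the listed genes the closest to SIR was GSTU20, a tau class glutathione transferase, with an RMS difference of 0.246, followed by APS4 with 0.285. The farthest was MGL with 0.859.

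The genes beside SIR on its chromosome gave small differences. In the gene order of RefSeq, the nearest genes with a named probe set were DME (DEMETER, with 3 probe sets), At5g04550 and At5g04520 on one side, and At5g04600, At5g04610 and the MADS box gene AGL99 on the other. Their log2 differences between gun4-1 and Col-0 lay between -0.13 and 0.14. AGL99 (2.81 to 3.10), At5g04610 (4.67 to 4.98) and the DME probe sets at 3.88 to 4.25 and 4.69 to 5.24 were dim. They lay below the array medians of 6.41 to 6.57, and a small difference of a dim probe set says little about its gene. The other DME probe set, At5g04550, At5g04520 and At5g04600 were brighter, at 6.84 to 9.88. At5g04600, the next gene with a named probe set on its side, differed by -0.13 ± 0.089 (SE). None of these 8 probe sets passed the limma limits in any of the 3 comparisons.

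Markers of seedling organs were read beside SIR. Of 13 markers of photosynthetic shoot cells 2 were measured, LHCB4.1 and RCA, and their log2 differences between gun4-1 and Col-0 were -0.11 and 0.03. Their summed linear signal was 32432 to 33853 in Col-0, 32698 to 34235 in GAB and 31377 to 33307 in gun4-1. Of 12 root markers 2 were measured, EXPA7 and At4g26010. Their summed linear signal was 211 to 232 in Col-0, 102 to 188 in GAB and 255 to 362 in gun4-1. The sum was thus highest in gun4-1, where SIR was lowest, and lowest in GAB, where SIR overlapped Col-0. At4g26010, the brighter of the 2, differed between gun4-1 and Col-0 by a log2 difference of 0.33 ± 0.23 (SE) and did not pass. EXPA7, an expansin of root hairs, had log2 signals of 5.44, 5.61 and 5.70 in Col-0, 5.17, 5.37 and 5.34 in GAB, and 5.86, 6.48 and 6.10 in gun4-1. The gun4-1 arrays lay above all others, by a log2 difference of 0.85 ± 0.14 (SE, limma adjusted p = 0.0149) from GAB and 0.56 ± 0.14 (SE, adjusted p = 0.114) from Col-0. The call against GAB was lost when any of the GAB arrays or the third gun4-1 array was left out (adjusted p = 0.0573 to 0.0798). The part of root RNA in the SIR difference was not tested. The 1 of 8 markers of pollen and petal that was measured, ANX1, lay between 3.68 and 3.82 on all arrays. The 8 reference genes, none of which passed the limits, had a mean log2 signal of 9.30 to 9.39 per array and differed between gun4-1 and Col-0 by -0.03.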

How the data were processed

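The authors hybridized the RNA to ATH1 arrays and calculated normalized log2 signals per probe set by robust multi-array average before they were deposited. Affymetrix Expression Console is named in the processing notes of the submitters. Background correction and summary of probes are thus those of the authors, and 3 arrays per group limit the precision. The study states that experiments were repeated independently, but neither it nor the labels say what was separate between the arrays of a group, so p-values measure the spread between these arrays, which may be partly technical.

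Of 22810 probe sets, 64 Affymetrix controls were left out. The other 22746 were fitted in limma 3.58.1 (R 4.3.3), all 3 groups together, with 6 residual and 5.91 prior degrees of freedom and the Benjamini-Yekutieli adjustment, as the methods name. The script was tested on simulated data. Names came from the platform annotation and RefSeq (13513 probe sets with 1 gene, 13436 of them matched to RefSeq; 503 with several; 8730 unnamed). RefSeq was used only for names and gene order, and no coordinates or sequences are given. Listed genes without a named probe set were not analysed here.

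SIR, the gene lists and the tests were chosen with earlier results of these data known. Genes named are SIR, all measured genes of the sulfur, sirohaem, ferredoxin and early tetrapyrrole lists, of the other lists those past the limits and up to 2 more with the lowest p, the 10 nearest profiles, and 3 neighbours on each side. Alternatives varied the multiple-test adjustment, the limit on fold, the scaling of arrays, the probe sets kept (without dim ones, or without those of ambiguous type), the weighting of arrays, the model of the variance and the groups in the fit; the replicate number was also used as a block, and each array was left out in turn.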

Additional observations from a re-analysis of the deposited data

Results flagged for a closer look

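The direct comparison of gun4-1 with GAB is also the test of whether the differences of both from Col-0 are unequal, and among the listed genes and markers read beside SIR it passed the limma limits for 4. At1g04770 was lower in gun4-1 than in GAB by a log2 difference of -0.79, and MGL was higher by 0.96. The root markers EXPA7 and At4g26010 were higher by 0.85 and 1.21. At4g26010 had log2 signals of 7.39, 7.52 and 7.41 in Col-0, 6.05, 6.44 and 7.20 in GAB and 7.62, 8.09 and 7.59 in gun4-1, so that its GAB arrays were widely spread (limma adjusted p = 0.0458 between gun4-1 and GAB). This call was lost with 8 of the 9 arrays left out in turn, the third GAB array being the exception (adjusted p = 0.0775 to 0.23), and in a fit of the 2 groups alone (adjusted p = 0.185). The call of EXPA7 was lost without any 1 of the GAB arrays or without the third gun4-1 array (adjusted p = 0.0573 to 0.0798), and in the fit of the 2 groups (adjusted p = 0.0647). Against Col-0, EXPA7 in gun4-1 passed after a further quantile normalization (0.66, adjusted p = 0.0208), after centring on the array median (0.66, adjusted p = 0.0203) and without the first gun4-1 array (0.71, adjusted p = 0.0292).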

How the results depend on the processing

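The log2 difference of SIR kept its sign in each comparison under all 3 scalings and with each array left out, from -0.84 to -0.68 for gun4-1 minus Col-0, -0.77 to -0.60 for gun4-1 minus GAB and -0.18 to -0.01 for GAB minus Col-0. With a fold limit of 2, the probe sets past both limits numbered 97 (332 at 1.5) in GAB, 512 (1570) in gun4-1 and 324 (864) between gun4-1 and GAB, and the listed genes 0 in GAB and 0 between gun4-1 and GAB. In gun4-1, 5 listed genes passed after quantile normalization and 5 after centring on the median, in place of 3. With each array left out in turn, the probe sets numbered 181 to 316 in GAB, 1307 to 1551 in gun4-1 and 646 to 852 between gun4-1 and GAB, and the listed genes 1 to 2, 3 to 5 and 2 to 3. The arrays whose loss moved the GAB count by more than 1.5 times were the second Col-0 array (185), the third Col-0 array (196), the first GAB array (219) and the second GAB array (181). The replicate numbers were not taken to pair the arrays in the main fit. Of the correlations between the deviations of same-numbered arrays, 6 of 9 were above 0.1 (range -0.067 to 0.265). Of those of different numbers, 5 of 18 were above 0.1 and 12 below 0 (range -0.335 to 0.187). As deviations from a group mean sum to 0, some negative values are built in. An array correlated best with its own number in 9 of 18 cases. With the replicate number as a block the counts were 380, 1643 and 944 probe sets, in place of 332, 1570 and 864, and 2, 3 and 2 listed genes. Whether the numbers mark a shared replicate effect was not tested. Of 2922 values of single genes under the alternatives, from 147 results, 2883 kept their side of the limits, 25 fell short of them, 14 newly passed and 0 were reversed. A change of sign was counted as reversed only where a call was involved. Most of the 2883 were of results past the limits in neither setting, so this total does not measure how stable the calls were. The 25 losses fell on the few calls, those of At1g04770, PORB, SUFE2, MGL, EXPA7 and At4g26010. The cause of these shifts was not tested.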

Other observations

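A RefSeq symbol or synonym that holds sulf, thiol, cysteine, thioredoxin or methionine was found for 46 probe sets other than that of SIR. The search was made after the values were seen, and 4 of the 46 (SUFE2, MGL, GR1 and CPNIFS) also stand on the pathway lists. In gun4-1 against Col-0, 4 of the 46 were higher and 1 lower in limma, and in GAB 0 were higher and 0 lower, with median log2 differences of 0.08 and 0.05. Over all probe sets tested, 2.44% were higher and 4.46% lower in gun4-1, and 0.769% and 0.690% in GAB. The higher of the 46 in gun4-1 were SUFE2 and MGL, described above, the prenylcysteine methylesterase PCME (0.59, adjusted p = 0.00733) and PDF1.4, listed as a cysteine-rich protein (2.38, adjusted p = 0.000961). The lower one was PDF2.5, of the same description (-1.65, adjusted p = 6.9e-06). STR18, a sulfurtransferase, had log2 signals of 11.09, 11.11 and 11.21 in Col-0, 11.08, 10.95 and 11.19 in GAB and 11.71, 11.56 and 11.45 in gun4-1, a log2 difference of 0.44 that was below the fold limit (adjusted p = 0.0481). OASA2, an O-acetylserine (thiol) lyase isoform and thus a gene of cysteine synthesis by its name, had 7.04, 7.12 and 7.24 in Col-0, 6.95, 7.20 and 7.24 in GAB and 7.06, 7.72 and 7.35 in gun4-1. Its groups overlapped, unlike those of SIR in gun4-1 and Col-0.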
